A study of Mus musculus with 3 samples.

Results

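The T-cell receptor variable (V), diversity (D) and joining (J) segments were followed in T-helper 1 (Th1) cells of the mouse. Members were all genes whose GENCODE mouse type is a T-cell receptor V, D or J gene, which gave 218 of the 50600 genes in the files. There were 144 V, 4 D and 70 J segments, grouped by locus into Tra, Trb, Trg and Trd. The choice of members used no measured value. The names of 2 V segments carry no locus prefix, and the gene table of RefSeq places B230359F08Rik as Trav13-5 and C920008G01Rik as Trav7d-6.

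The study held 1 group of 3 libraries, labelled biological replicates 1, 2 and 3, of primary Th1 cells from the strain C57BL/6NJ, with no treatment, genotype or control to compare. Th1 cells are helper T cells known for secreting interferon gamma. All libraries carry the same donor record, the headers of the files give 72 hours and the word sorted, and sex and age were not given. The assay label says total RNA, but the protocol linked for library making names polyA+ RNA.

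A T-cell receptor gene is put together in the developing T cell: in the alpha and gamma chains a V segment is joined to a J segment, and in the beta and delta chains a D segment is joined between them. The V segment encodes most of the variable domain, and the joint encodes the third antigen-contacting loop. Splicing then links the joined segments to a constant gene. A conventional CD4 T cell carries an alpha and a beta chain, so the Tra and Trb segments in its RNA record which of the inherited segments its receptor was built from, while gamma-delta T cells use Trg and Trd.

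The files give raw fragment counts by gene. A fragment was counted when its first read lay on the strand of the gene, so each value belongs to the counted strand. The headers call the libraries stranded, but whether this setting is the one that fits the kit is not given in the sources used here and was not tested. If the opposite setting is the right one, the counts are those of RNA antisense to the segments, and this holds for every value below. The command in the file headers had no option to count a fragment that touched exons of several genes or mapped to several places, and by the program's default such fragments were left out. A fragment that spans a joint of V, J and constant exons is therefore not among these counts. Total counts were 4482916, 266790 and 3733531 in replicates 1, 2 and 3, and the depth of replicate 2 was lower by 16.8-fold relative to replicate 1 and by 14.0-fold relative to replicate 3. A count of 3 corresponded to 0.669, 11.2 and 0.804 CPM (counts scaled to the library total). Genes with an exon on the opposite strand of another gene's exon (overlapped genes) were 16.2% of all genes and held 51.7%, 55.1% and 66.5% of the counts. Among the members only 6 were overlapped (2.75%), with 18 of 1243 counts, namely Tcrg-V4, Trav13d-3, Trav13n-3, Trdv2-1, Trdv2-2 and Trdv5. On the same strand, Trbv4 and Trbv5 share exon bases with 5830405F06Rik.

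The sequences below are shown because they carry the features by which V, D and J segments are recognised, and because they belong to the segments that the counts turn on. They are spliced transcript sequences of GENCODE release 21 on GRCm38, written 5′ to 3′ on the gene's own strand. Of the 218 members, 208 had a transcript sequence as long as the deposited exons. The first lines give the last 60 bases of V segments, with the last in-frame cysteine codon (TGT or TGC) in capitals, the codon at which the V segment's conserved cysteine usually stands. Such a codon was found in 144 of 144 V members.
Trbv13-2 (gene at chr6:41121396-41121832, + strand): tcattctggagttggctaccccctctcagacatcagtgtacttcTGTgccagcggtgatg
Trbv13-1 (gene at chr6:41116007-41116468, + strand): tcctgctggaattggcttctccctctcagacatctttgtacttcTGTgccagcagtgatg
Trbv13-3 (gene at chr6:41130147-41130585, + strand): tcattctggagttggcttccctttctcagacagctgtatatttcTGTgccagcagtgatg
Trbv19 (gene at chr6:41178375-41179048, + strand): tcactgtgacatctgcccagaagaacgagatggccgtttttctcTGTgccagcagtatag
Trbv15 (gene at chr6:41141188-41141658, + strand): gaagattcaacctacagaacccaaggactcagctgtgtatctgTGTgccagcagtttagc
Trbv31 (gene at chr6:41557691-41558452, - strand): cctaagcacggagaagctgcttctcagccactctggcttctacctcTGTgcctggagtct
Trav15-2-dv6-2 (gene at chr14:53649404-53649994, + strand): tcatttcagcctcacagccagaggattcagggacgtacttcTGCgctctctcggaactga
Trav7-6 (gene at chr14:53716716-53717291, + strand): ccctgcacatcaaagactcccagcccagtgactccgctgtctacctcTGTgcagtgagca
Trav13n-3 (gene at chr14:53337122-53337639, + strand): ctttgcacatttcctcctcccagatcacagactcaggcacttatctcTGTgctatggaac

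The beta-chain D segments and selected J segments follow. The capitals in a J segment mark the J motif, the consecutive codons TTN, GGN, NNN and GGN, searched on the coding strand at any position. It takes in the phenylalanine-glycine-any-glycine turn that J segments are known for. Trbj1-6 and Trbj1-7 are shown because these letters were not found in them.
Trbd1 (chr6:41533201-41533212, + strand): gggacagggggc
Trbd2 (chr6:41542163-41542176, + strand): gggactgggggggc
Trbj1-1 (chr6:41533864-41533911, + strand): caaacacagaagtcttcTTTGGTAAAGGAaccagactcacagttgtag
Trbj1-5 (chr6:41535084-41535133, + strand): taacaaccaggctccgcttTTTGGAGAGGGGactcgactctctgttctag
Trbj1-6 (chr6:41535554-41535606, + strand): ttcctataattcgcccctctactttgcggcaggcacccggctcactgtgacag
Trbj1-7 (chr6:41535642-41535687, + strand): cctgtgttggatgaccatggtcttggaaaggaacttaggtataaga
Trbj2-1 (chr6:41542754-41542803, + strand): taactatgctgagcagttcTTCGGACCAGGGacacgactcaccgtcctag

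In all, 107 of the 218 segments had at least 1 count and 111 had none. The members held 787, 72 and 384 counts in replicates 1, 2 and 3, which was 0.0176%, 0.0270% and 0.0103% of each library (mean 0.0183% ± 0.00837, SD, n = 3). Of the counts in genes with no opposite-strand overlap, the members with no overlap held a larger 0.0360%, 0.0601% and 0.0299%. The share was highest in replicate 2 and lowest in replicate 3 on either base. At least 3 counts over the libraries were reached by 66 segments. A count in every library was found for 9 segments, namely Trbv3, Trbv13-1, Trbv13-2, Trbv19, Trbv20, Trav7-6, Trav15-2-dv6-2, Trav16 and Trbj2-1.

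By class, V segments held 699, 65 and 333 counts, and 77 of 144 had a count. D segments held 16, 0 and 10 counts, and 2 of 4 had a count. J segments held 72, 7 and 41 counts, and 28 of 70 had a count. J and D exons are far shorter than V exons, with median lengths of 60, 13 and 378 bases for J, D and V, and these sums are not per length. V segments held 1097 of the 1243 member counts.

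By locus, Trb held 82.2%, 66.7% and 78.6% of the member counts (75.8% ± 8.14, SD, n = 3) and Tra held 17.4%, 33.3% and 21.4% (24.0% ± 8.29). Per kb of exon the mean Trb share was 84.1%. Trb was the larger in every library, and replicate 2 had the lowest Trb share. The exact 95% interval of the Trb share was 54.6% to 77.3% in replicate 2, below that of 79.4% to 84.8% in replicate 1 and reaching into that of 74.2% to 82.6% in replicate 3. The intervals hold counting error alone: PCR can copy a fragment, the copies are not separate molecules, and no step to remove them is given in the sources used here.

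**Figure D1:**
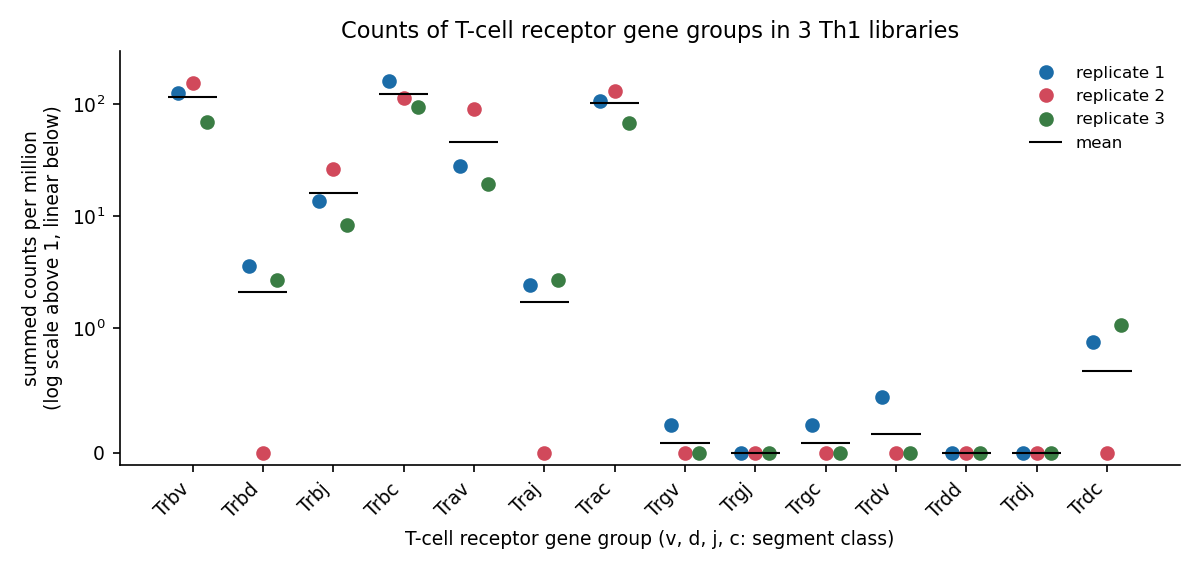
Summed CPM of each T-cell receptor gene group in the 3 Th1 libraries (points) with their mean (line), on an axis that is logarithmic above 1 and linear below. Trbv, Trav, Trbj and the constant genes Trac and Trbc stand above 8 CPM in every library, while the Trg and Trd groups stay near 0.

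Few counts fell on the segments named for the gamma and delta loci. The 10 Trav segments with DV in the name, which the delta chain can use too, held 15, 10 and 6 counts and are counted with Trav here. Of the V counts, Trav and Trbv held 696 of 699, 65 of 65 and 333 of 333 (mean 99.9% ± 0.248, SD, n = 3). The Trgv and Trdv segments together held 3 of 1097 counts (0.273%, exact 95% interval 0.0564% to 0.797%). These were 1 count each for Tcrg-V1, Trdv2-1 and Trdv5, all in replicate 1. Trdv2-1 is overlapped by Gm43647 and Trdv5 by Trdc. A count of 0, taken as up to 3 counts of the total, allows a share of V counts of up to 4.62% in replicate 2 and 0.901% in replicate 3, so replicate 2 sets only a loose limit. None of the 4 Trgj, 2 Trdj and 2 Trdd segments had a count.

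The constant genes followed the same split. Trac, the alpha constant gene, had 478, 35 and 251 counts (222 ± 81.3 TPM, a share of the library scaled by exon length, n = 3). Trbc1 had 363, 21 and 188 counts (191 ± 58.9 TPM) and Trbc2 had 364, 9 and 165 counts (156 ± 82.8 TPM). Trbc1 and Trbc2 are close copies, so fragments that fit both were left out and their split is uncertain. Trdc, which is overlapped, had 4, 0 and 4 counts, Tcrg-C4 had 1, 0 and 0, and Tcrg-C1, Tcrg-C2 and Tcrg-C3 had none.

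Counts of markers of the cell types a T-cell gate could hold were set beside the label. If the strand setting is the wrong one, these counts, zeros among them, cannot check it. Cd4, the coreceptor of helper cells, had 1676, 110 and 927 counts (174 ± 53.5 TPM). Cd8a had none and Cd8b1 had 14, 0 and 7. Of 8 gamma-delta markers listed, 7 were in the files and 3 had a count, with a summed level of 1.98, 0 and 1.65 TPM. Sox13 was the highest of these with 9, 0 and 10 counts, and Blk and Cd163l1 had none. Zbtb16, Klrb1c, Trav11 and Traj18, markers of invariant natural killer T cells, were all at 0. For Trav11 and Traj18 this says little, for the limits given below with the invariant segments. Of the B-cell list, 4 of 7 genes had a count, with a summed level of 57.8, 14.7 and 26.9 TPM; Ms4a1 and Pax5 were at 0, and Ighm made up 193, 1 and 63 counts. Cd79a had 11, 2 and 31 counts. Both genes of this list with enough counts, Cd79a (ratio 4.01, highest in replicate 3) and Ighm (ratio 3.89, highest in replicate 1), passed the test between libraries described below, as did 32.2% of all genes tested.

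Immunoglobulin segments were taken for comparison, as receptor segments of another lineage. Of 251 immunoglobulin V, D and J genes, 2 had a count, and they held 4 counts over the libraries (Ighv6-3 with 3 and Ighd1-1 with 1). T-cell receptor pseudogenes were also low: 3 of 34 V pseudogenes held 3 counts, and 3 of 10 J pseudogenes held 5. The members held 1243 counts over 107 of 218 genes. Sequence shared between close copies was not measured for the immunoglobulin segments, and its part in their low counts was not tested. The 13 immunoglobulin constant genes held 205, 1 and 64 counts in replicates 1, 2 and 3.

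The genes that cut and join the segments in developing thymocytes were near 0 where they are specific to that stage. Rag1 and Rag2, which make the cut, and Ptcra, the alpha chain's stand-in before it is joined, had no count, and Dntt, which adds bases to the joint, had 0, 0 and 1. The general DNA repair genes of the list were counted: Lig4 had 48, 0 and 20 counts, Xrcc4 (overlapped) 50, 0 and 31, Dclre1c (overlapped) 467, 34 and 593, and Prkdc 156, 6 and 74. Of the CD3 chains that carry the receptor to the surface, Cd3d had 401, 24 and 255 counts, Cd3g 579, 47 and 245, Cd3e (overlapped) 292, 1 and 157, and Cd247 (overlapped) 1387, 93 and 1306.

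All 22 Trbv segments had a count, 21 in replicate 1, 6 in replicate 2 and 18 in replicate 3. They held 570, 41 and 261 counts, 117 ± 42.8 CPM (SD, n = 3). The 5 segments with the most counts held 58.9%, 82.9% and 60.2% of the Trbv counts in replicates 1, 2 and 3, and the 10 with the most held 87.0%, 82.9% and 86.2%.

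Trbv13-2 had 110, 6 and 50 counts, which was 19.3%, 14.6% and 19.2% of Trbv (17.7% ± 2.65, SD, n = 3), at 121 ± 43.4 TPM. The exact 95% interval of this share in replicate 2 was wide, from 5.57% to 29.2%. With Trbv13-1 and Trbv13-3 it forms a family of 3 genes close together on chromosome 6, where Trbv12-2 lies between Trbv13-1 and Trbv13-2. The family held 219, 14 and 73 counts, or 38.4%, 34.1% and 28.0% of Trbv (33.5% ± 5.25).

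Within the family, the members did not move together. Trbv13-1 had 72, 8 and 13 counts, a share of 12.6%, 19.5% and 4.98%. Trbv13-3 had 37, 0 and 10 counts, and no count in replicate 2, taken as up to 3 counts, allows 7.32% of the 41 Trbv counts there. Relative to Trbv13-2, Trbv13-1 had 0.655, 1.33 and 0.260 times the counts. The 3 genes are related but not copies: Trbv13-1 and Trbv13-2 shared 299 of 337 aligned bases (88.7%), Trbv13-2 and Trbv13-3 shared 90.6%, and Trbv13-1 and Trbv13-3 shared 86.1%. In the ends printed above, each of the 3 reads TGTgccagc at the cysteine, as do those of Trbv19 and Trbv15.

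Trbv19 had 60, 17 and 41 counts, which was 10.5%, 41.5% and 15.7% of Trbv (22.6% ± 16.6, SD, n = 3). Its exact 95% interval in replicate 2 ran from 26.3% to 57.9%, above those of replicate 1 (8.13% to 13.3%) and replicate 3 (11.5% to 20.7%). Replicate 2 alone put Trbv19 at the head of the mean shares. Without it the mean share of Trbv19 was 13.1%, behind Trbv13-2 at 19.2%; without replicate 1 or replicate 3 it was 28.6% or 26.0%.

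**Figure D2:**
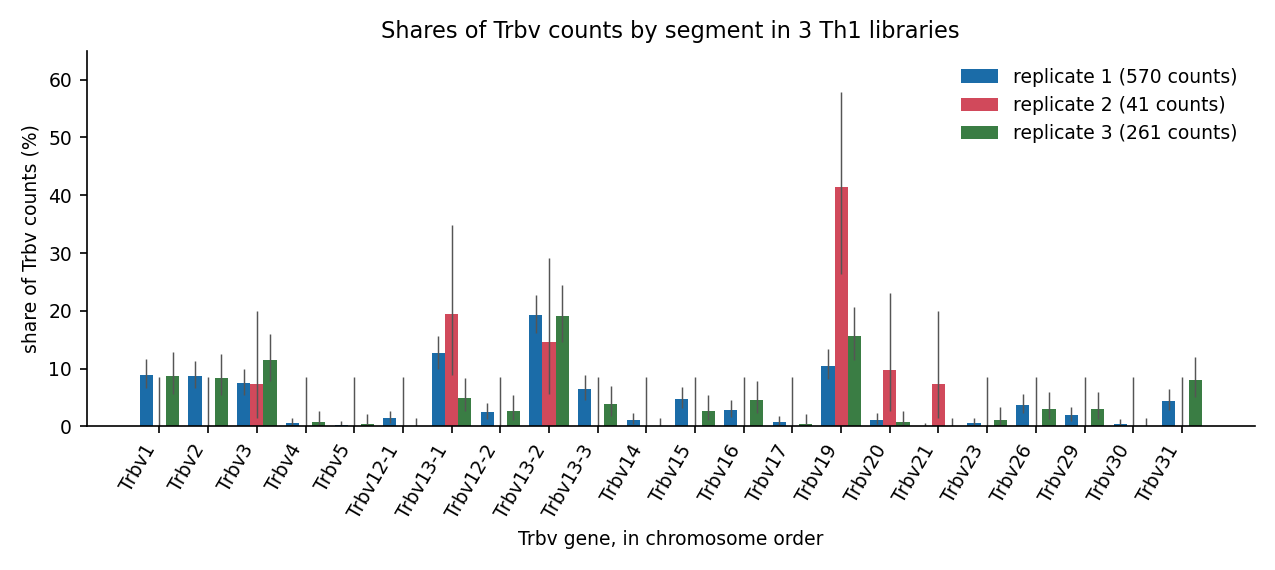
Share of Trbv counts (%) taken by each of the 22 Trbv segments, in chromosome order, for replicates 1, 2 and 3 (bars), with exact 95% binomial intervals (lines). Trbv13-2 stands between 14.6% and 19.3% in the 3 libraries, and Trbv19 reaches 41.5% in replicate 2 against 10.5% and 15.7% in the others.

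Among the other Trbv segments, Trbv3 had 43, 3 and 30 counts (8.79% ± 2.35 of Trbv, SD, n = 3). Trbv1 had 51, 0 and 23 counts, Trbv2 had 50, 0 and 22, and both stood above 8% of Trbv in replicates 1 and 3 and at 0 in replicate 2. Trbv31, which lies beyond the constant genes on the minus strand and joins by inversion, had 25, 0 and 21 counts. Trbv20 had 6, 4 and 2 counts. Trbv21 was counted in replicate 2 alone, with 0, 3 and 0. Trbv15 had 27, 0 and 7 counts, Trbv26 had 21, 0 and 8, Trbv16 had 16, 0 and 12, Trbv12-2 had 14, 0 and 7, and Trbv29 had 11, 0 and 8. The remaining Trbv12-1, Trbv14, Trbv23, Trbv4, Trbv17, Trbv5 and Trbv30 had 2 to 8 counts over the libraries and none in replicate 2. By position on the plus strand, the first 11 segments (Trbv1 to Trbv14) held 69.0% of the counts on that strand and the following 10 (Trbv15 to Trbv30) held 31.0%. The first had 395, 17 and 158 counts in replicates 1, 2 and 3 and the following 150, 24 and 82, so replicate 2 went the other way.

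Across the 22 Trbv genes, the counts of replicates 1 and 3 went together (Pearson's r 0.882, Spearman's rho 0.889), as a description of genes that share a locus and a similar length. With the 41 counts of replicate 2, r was 0.555 to replicate 1 and 0.598 to replicate 3. The 52 counted Trav genes, at a few counts each, gave r 0.26 and rho 0.0995 between replicates 1 and 3, and r -0.075 between replicates 1 and 2. Trav genes with no count in any library were left out, which can lower these values, while all 22 Trbv genes entered. The Trav values therefore do not compare directly with those of Trbv. All 18 Trbv segments counted in replicate 3 were among the 21 of replicate 1, which is 100% of the list of replicate 3 and 85.7% of that of replicate 1. Since replicate 1 held 21 of the 22, almost any list of Trbv segments would lie nearly all within it.

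Differences between the libraries were tested per gene with a chi-square test on the counts of all genes, with library sizes scaled by TMM. Genes needed 10 counts or more on average, p-values were adjusted by Benjamini and Hochberg's method over all genes, and a call needed an adjusted p under 0.05 and a 2-fold or larger ratio of the highest to the lowest library. The lowest was taken after raising any library with fewer than 3 counts to 3. The test compares these libraries, not conditions, and holds counting error only. After scaling, library sizes were 4719983, 285360 and 3315246 in replicates 1, 2 and 3. Expected counts in replicate 2 were therefore small for genes with few counts, the tested members among them, and their adjusted p-values are approximate. Of all 11595 genes tested, 32.2% passed. Only 9 members had enough counts to be tested, all of them Trbv, and 4 passed, which is too few genes to set against that background. With no limit on the ratio, 4 members also had an adjusted p under the threshold in the chi-square test, where 55.5% of all genes did. The median ratio was 1.60 over these 9 and 1.78 over all genes tested.

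The 4 that passed fell into pairs. Trbv19 (ratio 4.82, adjusted p = 3.06e-09 in this chi-square test) and Trbv13-1 (ratio 7.15, adjusted p = 1.59e-06) were highest in replicate 2, where 10.5% of all genes passed with that direction. Trbv13-3 (ratio 2.60, adjusted p = 0.0168) and Trbv15 (ratio 2.71, adjusted p = 0.0451) stood higher in replicate 1 than in replicate 3, which gave these ratios, and 7.59% of all genes passed with replicate 1 highest. Both had no count in replicate 2, where 3 counts equal 11.2 CPM, above their 8.25 and 6.02 CPM in replicate 1, so the place of replicate 2 is not known. Trbv15 did not pass with DESeq2 size factors (adjusted p = 0.0626 in the chi-square test) or with no filter on low counts (adjusted p = 0.0697). Trbv13-2 (adjusted p = 0.0632), Trbv2, Trbv1, Trbv31 and Trbv3 did not pass. Between replicates 1 and 3 alone, Trbv19 had a ratio of 1.05 (adjusted p = 0.868 in the chi-square test) and was not called. Trbv13-1 was still called there, highest in replicate 1 at a ratio of 3.59 (adjusted p = 3e-05), with 14.9% of all genes passing. Trbv13-3 was called (adjusted p = 0.0327) and Trbv15 was not (adjusted p = 0.065). When the fit was limited to genes without an overlap on the other strand, Trbv19 and Trbv13-1 passed and Trbv13-3 and Trbv15 did not, against 17.3% of all such genes. Without replicate 3, Trbv19 alone passed, where 11.8% of all genes did, and without replicate 1, Trbv13-1 and Trbv19 passed, where 18% did.

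Of the 20 related genes on the list, 11 were tested and 3 passed, beside the same 32.2%. Trbc2 (ratio 2.45) and Cd3e (ratio 5.88) were highest in replicate 1, and Cd3g (ratio 2.23) in replicate 2.

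The Trav segments lie on chromosome 14 between 52427928 and 53977678 and are the largest group. Of 110, 52 had a count, 44 in replicate 1, 6 in replicate 2 and 33 in replicate 3. Together they held 126, 24 and 72 counts (45.8 ± 38.5 CPM, SD, n = 3), so most single segments stood at a few counts. No Trav segment reached the count needed for the test between libraries.

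Trav15-2-dv6-2, a segment whose name marks it as usable by both the alpha and the delta chain, had 2, 10 and 2 counts. That was 41.7% of the Trav counts in replicate 2, against 1.59% and 2.78% in replicates 1 and 3. Trav7-6 had 5, 4 and 6 counts and Trav16 had 2, 3 and 4, and both were present in every library. Trav7-1 had 0, 4 and 1 counts, Trav12-3 had 0, 1 and 1, and Trav5-1 had 0, 2 and 0. These 6 segments held all 24 Trav counts of replicate 2.

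Trav13n-3 had 6, 0 and 9 counts and was the highest Trav segment of replicate 3. Its whole exon length of 337 bases is overlapped by Gm43650 on the other strand, which had 5, 0 and 2 counts. The part of this overlap in the counts was not tested. Trav10 had 7, 0 and 2 counts, Trav14-3 had 6, 0 and 3, Trav14n-3 had 4, 0 and 4, and Trav9-2 had 2, 0 and 5. By family, Trav7 held 35 counts over 14 members, Trav14 held 29 over 9, Trav13 held 26 over 12 and Trav6 held 22 over 15, summed over the libraries. In that sum Trav7 was the highest at 15.8% of Trav. In replicate 2, Trav15 held 41.7% and Trav7 held 33.3%.

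The mouse Tra locus holds copied blocks, and the names of the copied segments carry the suffix D or N. The 47 segments with no suffix held 169 of the 222 Trav counts, and 36 of them had a count. The 35 D copies held 23 counts with 10 members counted, and the 28 N copies held 30 counts with 6 counted. Per member this was 3.60, 0.657 and 1.07 counts for no suffix, D and N. The order was the same in replicate 1 (97, 13 and 16 counts) and replicate 3 (48, 10 and 14), with N above D in both, and replicate 2 had counts in segments with no suffix alone (24, 0 and 0). Of the 10 segments with DV in the name, 6 had a count, and they held 31 counts.

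**Figure D3:**
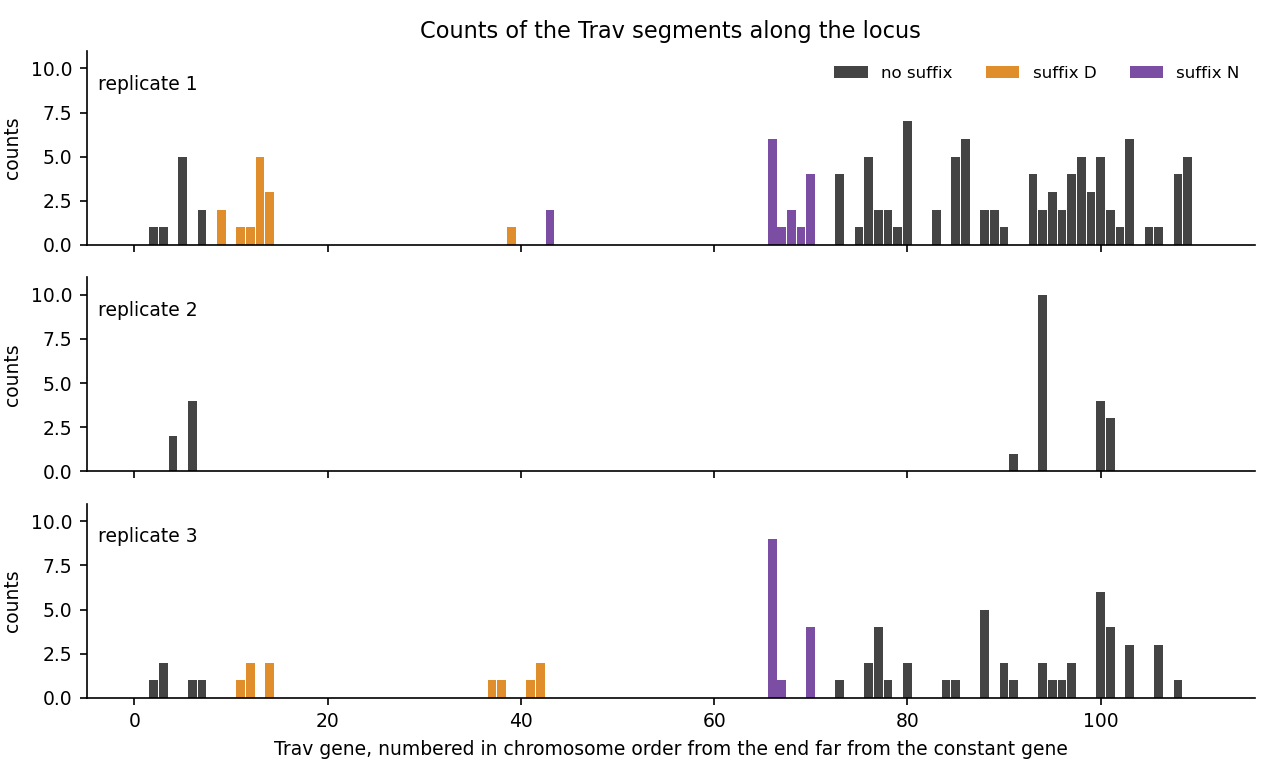
Counts of each of the 110 Trav segments, numbered along chromosome 14 from the end far from the constant gene, in replicates 1, 2 and 3 (panels from top to bottom), with the D and N copies in colour. In replicate 2 all 24 counts lie in 6 segments with no suffix, and Trav15-2-dv6-2 has 10 of them.

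Along the locus, the counts lay mostly at the end near the J segments and the constant gene. Of 4 runs of 27 or 28 segments in chromosome order, the first held 16.7% of the Trav counts, the second 3.60%, the third 27.9% and the fourth, from Trav12-1 to Trav23, 51.8%. In the fourth run 22 of 27 segments had a count, and in the second 6 of 27.

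Sequence sharing was measured as the share of a segment's 50-base words that occur in no other T-cell receptor segment or pseudogene. This share is only a rough guide to what a uniquely mapping fragment could reach. The rest of the genome and the length of the fragments did not enter. The median was 61.7% for Trav segments with no suffix and 0% for the D and for the N copies. Of 37 Trav segments with no such word, 1 had a count (C920008G01Rik, 0, 0 and 1). Of 31 with some but under 50% of their words unique, 18 had a count, of 34 with 50% or more but not all, 28 had one, and of 8 with all words unique, 5 had one. Per member, these 4 classes held 0.0270, 2.65, 3.56 and 2.25 counts, so the class with all words unique was not the highest. The classes pool all Trav segments and were not split by suffix. What part of the low counts of the D and N copies goes with their shared words was not tested. The chromosome 14 order moves with the suffix too, since all 27 segments of the second run are D or N copies.

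For the segments with the most counts, close copies remain a limit. Trav13n-3 differs from Trav13d-3 by 1 base of 337, and 17.4% of its words are unique. Trav15-2-dv6-2 shares 98.4% of its bases with Trav15n-2, yet 61.7% of its words are unique, and Trav7-6 shares 97.6% with Trav7n-6, with 56.9% unique. Trbv segments share few words: 19 of 22 have all words unique, and Trbv13-2, Trbv13-3 and Trbv12-2 have nearly all.

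**Figure D4:**
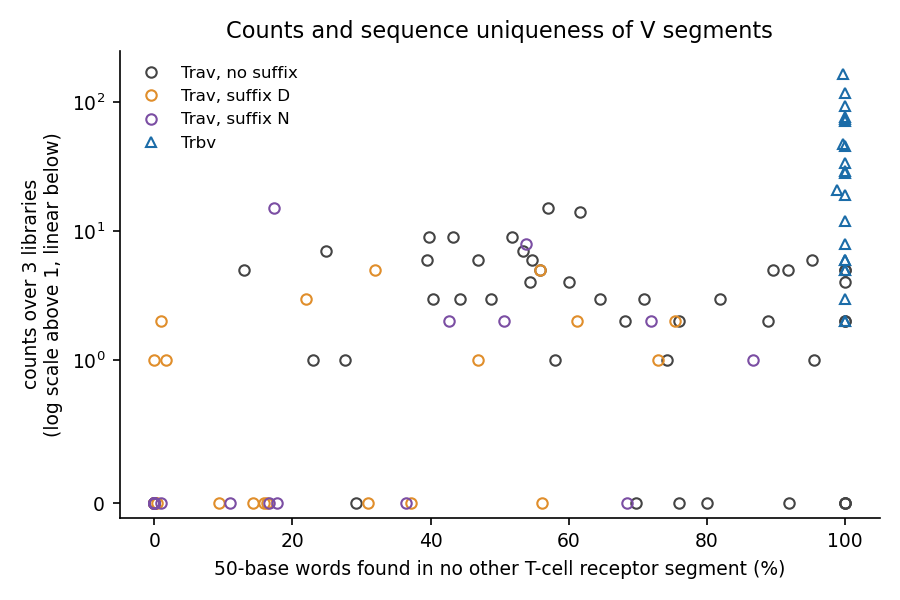
Counts over the 3 libraries (log axis above 1, linear below) against the share of 50-base words found in no other T-cell receptor segment (%), for each Trav segment (circles, by copy suffix) and each Trbv segment (triangles). The 37 Trav segments at 0% have 1 count in all, and the Trbv segments stand at or near 100%.

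The segments of invariant receptors were not counted. Trav11, Trav11d and Traj18, which make the alpha chain of invariant natural killer T cells, and Trav1 and Traj33, which make that of mucosal-associated invariant T cells, each had 0 counts in every library. For Trav11 and Trav11d, 0% of the words are unique, so no stretch of that length tells either from every other segment. Trav1 has 100% unique words. For Trav1, a count of 0, taken as up to 3 counts of the 126, 24 and 72 Trav counts, allows a share of up to 2.38%, 12.5% and 4.17%. For Traj18 and Traj33 a count of 0 says little, since only 15 of 51 Traj segments had a count, with 11, 0 and 10 counts in all.

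Fewer segments had a count in replicate 2 than in the other libraries, also at matched counts. The effective number of Trbv segments (inverse Simpson index, which equals the number of segments when all are used alike) was 10.2, 3.97 and 9.47 in replicates 1, 2 and 3 (7.89 ± 3.42, SD, n = 3). For Trav it was 31.8, 3.95 and 19.9 (18.5 ± 14.0). To match depth, the expected number of segments with a count was computed for each library at the count of the shallowest, an alternative chosen after the data were seen. At 41 counts, 13.3, 6 and 12.7 Trbv segments were expected in replicates 1, 2 and 3, and at 24 counts, 18.5, 6 and 17.0 Trav segments. Replicates 1 and 3 stood close to each other, and replicate 2 stood at less than 50% of either. This number takes each count as a separate molecule. Rates of copied fragments are not given in the sources used here, and their part in the value of replicate 2 was not tested.

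**Figure D5:**
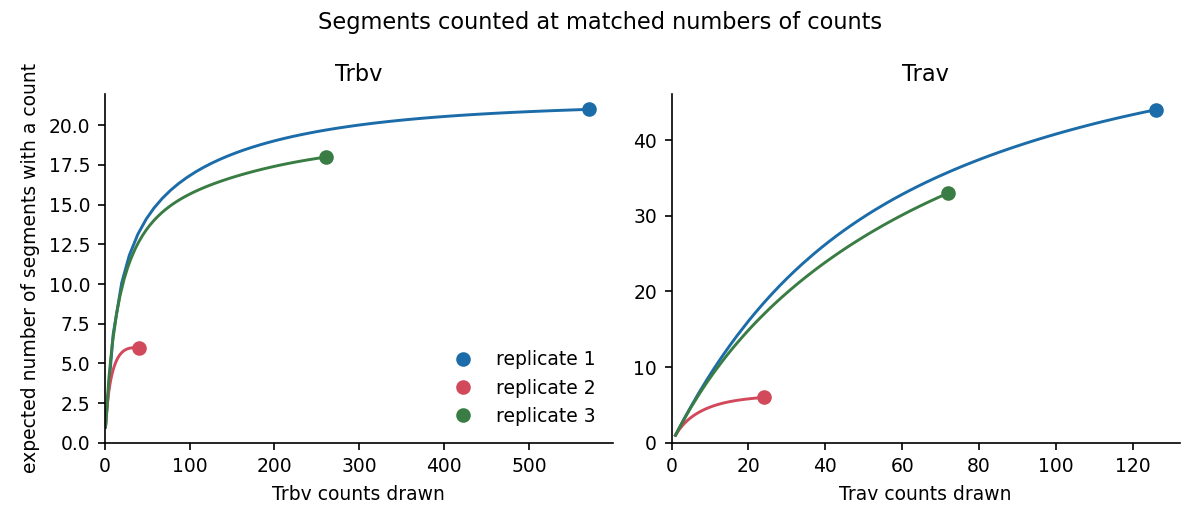
Expected number of segments with at least 1 count (vertical axis) when a given number of counts is drawn from a library (horizontal axis), for Trbv (left) and Trav (right), one line per replicate, with the observed value as a point. The lines of replicates 1 and 3 lie close together, and that of replicate 2 flattens at 6 segments in both panels, with each count taken as a separate molecule.

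All 13 Trbj segments had a count, with 61, 7 and 31 in all. Trbj2-1 was the highest, with 13, 2 and 11 counts, which was 21.3%, 28.6% and 35.5% of Trbj (28.5% ± 7.09, SD, n = 3), and the only J segment counted in every library. Trbj1-7, which lacks the motif, had 1, 5 and 0 counts, so 5 of the 7 Trbj counts of replicate 2 were on it. Trbj1-1 had 11, 0 and 2 counts, Trbj1-5 had 5, 0 and 5, Trbj1-4 had 4, 0 and 4, and Trbj2-4 had 4, 0 and 3. The other 7 Trbj segments had 2 to 6 counts over the libraries. Trbj exons are 46 to 54 bases long, so these levels compare at nearly the same length. Fragments that also touched a V or constant exon were left out. The J counts here and by cluster below are therefore not a measure of use in joined and spliced transcripts.

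The Trbj1 cluster has 7 segments and the Trbj2 cluster 6, and each lies ahead of its own constant gene. The Trbj2 cluster had 30, 2 and 19 counts and the Trbj1 cluster had 31, 5 and 12, or 51 and 48 over the libraries. The log2 ratio of Trbj2 to Trbj1 was -0.05, -1.14 and 0.64 (-0.18 ± 0.90, SD, n = 3), with 0.5 added to each sum, and its sign differed between libraries (exact two-sided sign-flip permutation test, p = 0.75). With 3 libraries this test cannot go below 0.25. The D segments ahead of the clusters, Trbd1 and Trbd2, had 8, 0 and 2 and 8, 0 and 8 counts. They are 12 and 14 bases long, and a counted fragment touched that exon and no exon of another gene.

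Only 15 of 51 Traj segments had a count, with 11, 0 and 10 in all. Traj6 had 3, 0 and 0 counts, and Traj37, Traj39, Traj23 and Traj43 had 2 over the libraries each. The other 10 with a count had 1 each. By position, the first 25 segments, from Traj59 to Traj31, held 9 counts, and the 26 nearer to the constant gene, from Traj30 to Traj2, held 12. At 21 counts in all, and with fragments that also touched a V or constant exon left out, use along the Traj array could not be resolved.

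The J motif was found in 57 of 70 J segments (81.4%), in 11 of 13 Trbj, 44 of 51 Traj and 2 of 6 Trgj and Trdj, and in 2 of 10 J pseudogenes. Of J segments with a count, 25 of 28 (89.3%) held it, and of those with none, 32 of 42 (76.2%) did. These sets differ by locus: all 13 Trbj had a count, and the 4 Trgj, which lack the motif, had none. Within Traj, 14 of 15 with a count and 30 of 36 with none held it.

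Beta-chain segments were counted more than alpha-chain segments within each library. The log2 ratio of Trbv to Trav counts was 2.18, 0.77 and 1.86 (1.60 ± 0.74, SD, n = 3; exact two-sided sign-flip permutation test, p = 0.25, the smallest 3 libraries allow). It was above 0 in 3 of 3 libraries, and its mean was 1.48 per kb of exon. For the constant genes, the sum of Trbc1 and Trbc2 per kb was 1.98, 1.10 and 1.82 times that of Trac. Trav had 0.264, 0.686 and 0.287 counts for each count of Trac, and Trbv had 0.784, 1.37 and 0.739 for each count of Trbc. In counts, which are not per length, the V segments thus stood lower against their constant gene in Tra than in Trb in each library. The exons of Trac add up to 935 bases, and those of Trbc1 and Trbc2 to 749 and 692. Trav segments share more words with copies than Trbv segments do, as given above, and the part of this in the ratio was not tested.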

How the data were processed

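The authors deposited raw counts of fragments per gene for 3 Th1 libraries, made with featureCounts 1.4.6-p4 on mm10 with GENCODE release 13, per the file headers. The headers record paired fragments with both ends mapped, strand setting 1 and exons summed by gene. The aligner's version is not given in the sources used here. Gene types and names came from GENCODE release 21, matched by identifier without version: 50376 of 50600 genes matched and 224 did not. CPM and TPM were computed from the counts and the deposited exon lengths. Of the value columns, 0 were left unused.

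Members and lists were chosen with earlier results of these data known. Named with values were the 10 highest of each locus and class, the counted Trg, Trd and D segments, members past the test, lead members of copied families, invariant segments and the listed genes; 1 listed gene is not reported here. The chi-square test used TMM factors (edgeR 4.0.16). DESeq2 1.42.0 size factors were an alternative, as were other filters, units and libraries left out. Intervals are exact Clopper-Pearson at 95%. Other software was Python 3.11.15, scipy 1.17.1, Biopython 1.88 and R 4.3.3. With 1 donor record for all libraries, the spread between them may be technical.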

Additional observations from a re-analysis of the deposited data

How the results depend on the processing

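Of 83 values computed under alternatives, 74 stayed within the SD between libraries or within 1.5 times the count. For results that are means over the libraries, leaving 1 out cannot move the mean by that SD, so those values were bound to stay. Of the 47 values that left no library out, 6 moved. Where the SD is wide the rule is loose: the effective number of Trav was 7.68 by family against 18.5, which counted as unmoved. The number of segments detected, 107, was 66 at a minimum of 3 counts, 9 when a count was required in every library, and 75 to 105 when 1 library was left out. The mean Trb share of 75.8% was 84.1% per kb of exon. The number of members past the test, 4, was 12 of 107 tested with no filter on low counts (20.7% of all genes passed). Expected counts there are too small for a chi-square test to be relied on, and those of replicate 2 are small in the main test too. The number of members past the test was 2 on genes with no opposite-strand overlap. It was 1 to 2 when 1 library was left out, with 7 to 13 members tested. The summed level of 0.0183% of the library was 0.0420% of the counts in genes with no overlap, an alternative added after the data were seen. With 1 library left out, the Trb share was 72.7% to 80.4%, the log2 ratio of Trbv to Trav 1.32 to 2.02, that of Trbj2 to Trbj1 -0.59 to 0.30, and the effective number of Trav segments 11.9 to 25.8 and of Trbv 6.72 to 9.85. No paired analysis was possible because there is only 1 group. Depth is a limit: replicate 2 holds 72 member counts, and Traj, Trg and Trd rest on a few counts each.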
